A study of Homo sapiens with 1 sample.

Results

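The genes described here are 10 members of the Hippo pathway: the co-activators YAP1 and WWTR1 (TAZ), the DNA-binding partners TEAD1 and TEAD2, and the target genes CTGF, CYR61, ANKRD1, AMOTL2, LATS2 and AXL. They were chosen by symbol, 10 of the 33538 genes listed in the count table, and all 10 had UMIs (unique molecular identifiers, each counting 1 captured RNA molecule). Their levels were read in 13925 of 14726 cell barcodes, those with 2000 to 10000 detected genes and a mitochondrial share of UMIs below 0.1. The cells were then placed in 4 bands by the level of TAGLN, a contractile gene of smooth muscle and of cells with actin stress fibres: below 5, from 5 to below 10, from 10 to 30, and above 30 TAGLN UMIs per 10000 UMIs of the cell.

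The series examines HAR123, a stretch of DNA that changed quickly on the human lineage. The library came from H9, an established human embryonic stem cell line, with genotype WT and the human form of that stretch (hHAR123). The cells had been steered towards neural progenitor cells (NPCs): 2 days attached with Dorsomorphin, SB431542 and a Rock inhibitor, 5 days in suspension with the first 2 agents, and 7 days replated in medium with N2 and Gem21. The clones were independent of each other and, by the study's methods, had been combined ahead of capture, so the library is 1 sample, no test could be run, and every interval below covers counting error only.

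The Hippo pathway is a kinase cascade in which STK3 and STK4 (the MST kinases), with the scaffold SAV1, act on LATS1 and LATS2, and these phosphorylate YAP1 and WWTR1. Phosphorylated YAP1 and WWTR1 are held in the cytoplasm or degraded. When the cascade is quiet they enter the nucleus, bind TEAD factors and raise transcription of genes such as CTGF, CYR61 and ANKRD1. The activity of YAP1 and WWTR1 is set largely by phosphorylation and location, which RNA counts do not measure. The pathway is known for responding to cell shape, tension and crowding, and in the neural tube for its part in the growth of progenitors.

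TEAD factors bind the letters CATTCC, read on the other strand as GGAATG. The 250 bases before the start of CTGF and ANKRD1 are shown because these genes differed most between the bands and because their windows held 3 and 2 matches. The sequences are those of RefSeq on GRCh38.p14, each written 5′ to 3′ on the gene's own strand, the minus strand, with the matches in capitals.
CTGF, chr6:131951373-131951622: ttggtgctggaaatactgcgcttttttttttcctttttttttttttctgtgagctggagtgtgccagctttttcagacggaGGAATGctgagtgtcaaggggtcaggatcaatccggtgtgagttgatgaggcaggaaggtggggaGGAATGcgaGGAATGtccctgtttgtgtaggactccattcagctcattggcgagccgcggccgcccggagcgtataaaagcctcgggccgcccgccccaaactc
ANKRD1, chr10:90921088-90921337: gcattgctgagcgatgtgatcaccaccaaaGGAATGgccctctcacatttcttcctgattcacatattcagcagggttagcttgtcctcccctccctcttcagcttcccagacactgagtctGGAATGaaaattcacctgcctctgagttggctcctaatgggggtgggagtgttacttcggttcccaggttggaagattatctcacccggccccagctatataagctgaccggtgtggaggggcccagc

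CTGF itself spans chr6:131948176-131951372 and ANKRD1 chr10:90912096-90921087 in GENCODE on GRCh38, both protein-coding, and CTGF overlaps the long noncoding gene LINC01013 of the opposite strand. In CTGF the matches began at -169, -104 and -95, counted back from the base just before the start, and the last pair lay 3 bases apart. In ANKRD1 they began at -220 and -128. Of 35116 RefSeq promoter windows of this length, 11.9% held at least 1 match on either strand, 0.940% at least 2 and 0.0826% (29 windows) at least 3. The promoter windows used here covered 12 starts of 8 of the members, without TEAD1 and CYR61, and 5 of these starts, each of a different member, held a match. The single matches of YAP1, AMOTL2 and AXL are shown with 12 bases on each side, on the strand of the gene.
YAP1, chr11:102110273-102110302, plus strand: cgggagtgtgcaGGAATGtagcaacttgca
AMOTL2, the second start, chr3:134374499-134374528, minus strand: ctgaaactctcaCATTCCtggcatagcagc
AXL, the second start, chr19:41226531-41226560, plus strand: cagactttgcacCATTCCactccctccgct
No match lay in the windows of WWTR1, TEAD2 or LATS2, which says only that these letters were absent from 250 bases. A match is a description of the sequence and does not show that a factor binds there.

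The library held 327640709 UMIs in all barcodes and a median of 17900 per kept cell. The band below 5 held 10695 cells, the next 720, the band from 10 to 30 held 1096 and the band above 30 held 1414 (10.2% of kept cells). Depth differed strongly between these bands, with medians of 16318, 22150.5, 30604.5 and 42034 UMIs per cell. Levels are therefore given as CPM, the UMIs of a gene per 1000000 UMIs pooled over the cells of a band, and shares of cells after each cell was thinned at random to 5000 UMIs. The labelled cell type was read from its markers: the median level over 8 neural progenitor genes was 213 CPM below 5 and 80.2 CPM above 30, and their sum 1733 and 1301 CPM. NES alone was higher, at 212 and 708 CPM, and the other 7 were lower, with SOX2 at 433 and 129.6 CPM, PAX6 at 58.4 and 20.9 CPM and HES5 at 214 and 12.3 CPM. The summed level of 10 contractile genes, which did not include TAGLN, was 1129 and 11977 CPM in the same bands, most of it from TPM1 (557 and 5637 CPM) and CALD1 (418 and 4586 CPM). MYH11, the myosin heavy chain of smooth muscle, was lower, at 2.05 and 1.06 CPM, and DES had 14 and 3 UMIs. That of 5 epithelial genes was 170.2 and 781 CPM, with KRT8, KRT18 and CLDN6 higher and EPCAM (5.12 and 3.48 CPM) and KRT19 (29.3 and 19.4 CPM) lower. The 10 neuron genes had a median of 6.22 and 2.81 CPM, and their higher sum, 93.2 and 181 CPM, came with GAP43, at 11.97 and 120.04 CPM, while ELAVL4 had 3.13 and 0.112 CPM. Neural crest and mesenchyme genes summed to 15.9 and 67.8 CPM over 8 genes, most of the difference from COL1A2 (6.26 and 50.9 CPM), with PRRX1, LUM and TWIST1 also higher, at 9.04, 5.38 and 1.39 CPM above 30, TFAP2A and PDGFRA lower, at 0.112 and 0.929 CPM, and DCN at 0 above 30. Mesoderm and cardiac genes summed to 1.76 and 7.13 CPM over 5, with TNNT2 at 0.0973 and 5.94 CPM, MESP1 at 1.64 and 1.17 CPM, and TBXT and HAND1 at 0 above 30. The part of these other markers in the results below was not tested.

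Of the 6 targets, 5 differed more between the lowest and the highest band than any co-activator or TEAD factor did, and LATS2 did not. In cells above 30, ANKRD1 was 120.3-fold and CTGF 56.2-fold higher than in cells below 5, while YAP1 and TEAD2 had slightly lower levels. These ratios depended on depth. In cells with fewer than 15000, 15000 to 30000 and more than 30000 UMIs, they were 187, 76.6 and 47.1 for ANKRD1 and 23.8, 36.7 and 34.1 for CTGF. Summed over the 6 targets, the ratio was 20.1 (95% interval 19.9 to 20.4). At 5 to below 10, 5 of the 10 members were at least 2-fold higher than below 5, against 3.86% of all 18696 genes with at least 100 UMIs. From 10 to 30 there were 6 of 10, against 6.09%, and above 30 there were 6 of 10, against 7.35%. These 6 were ANKRD1, CTGF, CYR61, AXL, AMOTL2 and WWTR1. No member was at least 2-fold lower in any band, against 4.24%, 11.9% and 25.5% of all genes. The ratio of the median gene was 0.937, 0.862 and 0.758 in the 3 bands, so a level that stays the same in CPM stands above that of most genes in the deep cells. The members were chosen with earlier results of these data known, so the counts describe them and are no independent evidence.

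**Figure D1:**
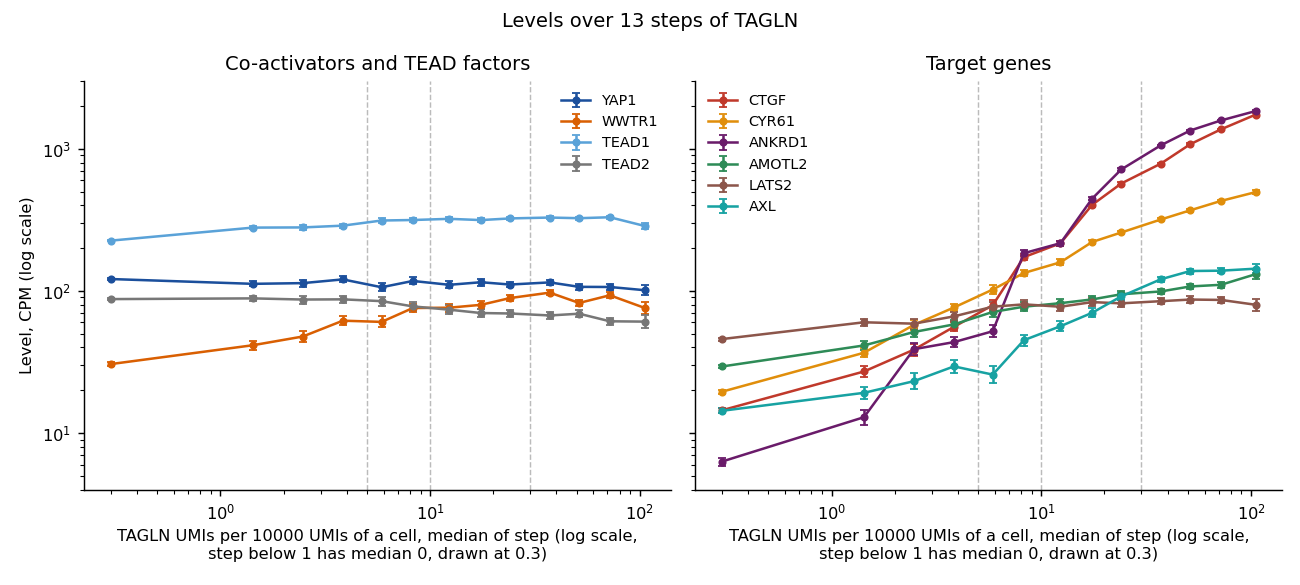
Level of each member in CPM (log scale, bars are exact 95% Poisson intervals) over 13 steps of TAGLN UMIs per 10000 (log scale), with the co-activators and TEAD factors on the left and the targets on the right; dashed lines mark the band limits of 5, 10 and 30. The co-activators and TEAD factors lie between 30.6 and 330.1 CPM at every step, whereas ANKRD1 runs from 6.30 to 1845 CPM and CTGF from 14.5 to 1742 CPM.

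The levels differed within the band below 5 as well, and the ratios between pooled bands do not mark a jump at 5. From below 1 to the step from 3 to below 5, ANKRD1 went from 6.30 to 43.6 CPM, CTGF from 14.5 to 55.9 CPM and CYR61 from 19.5 to 76.5 CPM. ANKRD1 had 52.1 CPM (47.2 to 57.2) in the 346 cells from 5 to below 7 and 184 CPM (176 to 193) in the 374 cells from 7 to below 10, and CTGF 79.4 and 173 CPM. CYR61 had 102.3 CPM from 5 to below 7. Both ANKRD1 and CTGF went on without a plateau, to 1742 CPM of CTGF and 1845 CPM of ANKRD1 in the 172 cells at 90 or above. WWTR1 had its highest level, 97.3 CPM, from 30 to below 45 and 76.0 CPM (69.0 to 83.4) at 90 or above.

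LATS2, the kinase that phosphorylates YAP1 and WWTR1 and is itself a target of YAP1, had levels of 49.4, 79.1, 81.0 and 85.4 CPM from the lowest to the highest band. The band from 5 to below 10 was 1.60-fold above the band below 5 (1.52 to 1.69), within which LATS2 had 45.8 CPM below 1 and 66.2 CPM from 3 to below 5. Between 5 to below 10 and 10 to 30 the interval of the ratio held 1 (0.962 to 1.09). Its relative LATS1 had levels of 59.8 CPM below 5 and 42.8 CPM above 30. LATS2 thus made up 45.2% of the UMIs of LATS1 and LATS2 below 5 (44.6 to 45.9%) and 66.6% above 30 (65.6 to 67.7%). In cells with fewer than 15000 UMIs, 4325 below 5 and 106 above 30, the LATS2 ratio was 0.995 (0.731 to 1.32).

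YAP1 was the co-activator with more UMIs, and over all depths its levels in the bands lay close together, at 119.9, 112.5, 112.0 and 109.1 CPM. Above 30 its ratio to the band below 5 was 0.910 (0.886 to 0.935), which turned to 1.20 when divided by the ratio of the median gene and to 2.20 when UMIs were counted per cell. In cells with fewer than 15000 UMIs it was 0.561 (0.435 to 0.712), from 110.2 and 61.8 CPM. WWTR1, the second co-activator, had levels of 34.7, 69.0, 82.8 and 90 CPM. Each band was higher than the one before, by 1.99 between below 5 and 5 to below 10 (1.87 to 2.11), and the ratio above 30 was 2.59 (2.50 to 2.69). In finer steps WWTR1 had 30.6 CPM below 1, 61.8 CPM from 3 to below 5 and 60.6 CPM from 5 to below 7. In cells with fewer than 15000 UMIs its ratio above 30 was 1.47 (1.07 to 1.98), under 2-fold. WWTR1 took 22.5% of the UMIs of the pair below 5 (22.0 to 22.9%), 38.0% at 5 to below 10, 42.5% at 10 to 30 and 45.2% above 30 (44.3 to 46.1%). After thinning, cells with a WWTR1 UMI and no YAP1 UMI were 8.08% of cells below 5 and 19.0% above 30, and cells with YAP1 only were 35.8% and 24.4%. The antisense gene WWTR1-AS1, which overlaps WWTR1, had 191 UMIs in kept cells against 16861 of WWTR1, and LATS2-AS1 had 1187 against 19556 of LATS2. The study's methods give default Cell Ranger parameters and do not name the strand used for counting.

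TEAD1, a DNA-binding partner of both co-activators, was the most counted member below 5, at 238 CPM, and had 314, 321 and 324 CPM in the other bands. The band from 5 to below 10 was 1.32-fold above the band below 5 (1.28 to 1.36), and the intervals of the 2 further ratios between neighbouring bands held 1. In finer steps TEAD1 already differed within the band below 5, with 226 CPM (224 to 228) below 1, 279 CPM from 1 to below 2, 288 CPM from 3 to below 5 and 313 CPM from 5 to below 7. Its ratio above 30 was 1.36 overall and 0.665 (0.562 to 0.781) in cells with fewer than 15000 UMIs. TEAD2, which is known as an early embryonic and neural TEAD factor, had a lower level in each band than in the one before, at 87.7, 80.9, 70.8 and 65.5 CPM. Its ratio above 30 was 0.747 (0.722 to 0.773), which was 0.986 after division by the median gene and 1.81 as UMIs per cell. Among the UMIs of all 4 TEAD genes, TEAD2 had 25.0% below 5 and 14.4% above 30, TEAD3 4.28% and 7.88%, and TEAD4 2.60% and 6.66%. TEAD1 held 68.1% and 71.1%.

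ANKRD1, a muscle ankyrin repeat protein found in the nucleus and the sarcomere, showed the widest range of all members, at 11.3, 125.6, 495 and 1355 CPM. Its ratio of 120.3 (115 to 126) above 30 was the third highest of the 18696 genes tested, and TAGLN, on which the bands rest, had 83.1. CTGF (CCN2 in newer annotation), a secreted matrix-associated protein, had 19.9, 131 and 421 CPM and reached 1116 CPM above 30, a ratio of 56.2 (54.4 to 58.0) and rank 25. CYR61 (CCN1), of the same secreted family, had 27.2, 119.8, 219 and 379 CPM and a ratio of 13.9 (13.5 to 14.4). In all 3 genes each band was higher than the one before, by 11.2, 6.62 and 4.40 from below 5 to 5 to below 10 and by 2.74, 2.65 and 1.73 from 10 to 30 to above 30. The band above 30, with 19.8% of the UMIs of kept cells, held 78.2% of the UMIs of ANKRD1, 75.6% of CTGF and 59.8% of CYR61.

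AXL, a receptor tyrosine kinase whose gene is a YAP1 target, had 16.3, 36.5, 75.4 and 133 CPM, with a ratio of 8.12 (7.80 to 8.46) above 30. AMOTL2, an angiomotin family member that binds and restrains YAP1 and is also induced by it, had 33.8, 74.7, 88.9 and 108 CPM (ratio 3.19, 3.08 to 3.30). From band to band AXL was higher by 2.23 (2.05 to 2.43), 2.06 (1.90 to 2.25) and 1.76 (1.69 to 1.84), the last below the intervals of the other two. For AMOTL2 the ratio between neighbouring bands was 2.21, then 1.19 and 1.21. The first of these spans a difference within the band below 5, where AMOTL2 had 29.4 CPM below 1 and 58.1 CPM from 3 to below 5, against 71.2 CPM from 5 to below 7.

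Within the band below 5 the UMIs of ANKRD1 gathered in few cells. The 107 cells with the most of them, 1% of the band, held 50.8% of that band's ANKRD1 UMIs. The same share was 27.8% for CTGF, 17.2% for CYR61, 15.9% for AXL, 11.04% for WWTR1, 9.18% for AMOTL2, 8.25% for LATS2 and 5.35% for YAP1, but it is larger for a gene with fewer UMIs even where these are spread at random. The variance of thinned UMIs over their mean, which is 1 for a random spread, was 1.99 for ANKRD1, 1.41 for CTGF and 1.24 for CYR61, against 1.15 for YAP1, 1.14 for WWTR1, 1.10 for LATS2, 1.05 for AMOTL2 and 1.04 for AXL. TEAD1 had 1.30 and TEAD2 1.03. Where cells differ in level, this measure is larger for a gene with a higher mean. The thinned mean was 1.15 for TEAD1 and 0.120 for CYR61, so it does not rank genes of unlike level. One cell of that band had 119 ANKRD1 UMIs. Above 30 the median cell had 10.7 ANKRD1 UMIs per 10000, with 0.550 at the tenth and 26.7 at the ninetieth percentile. For CTGF these were 0.700, 7.80 and 22.5, and for YAP1 0.195, 0.986 and 1.93. From 10 to 30 the median cell had 0.518 ANKRD1 UMIs per 10000 and the ninetieth percentile 11.9, so the band mixed cells with little and with much of it.

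Between the lowest and the highest band, the share of thinned cells with a UMI differed in the same direction as the level for all 10 members. For CTGF it was 7.71% below 5, 22.6% at 5 to below 10, 46.8% at 10 to 30 and 83.5% above 30 (81.5 to 85.4%). For ANKRD1 it was 3.28%, 14.0%, 41.4% and 83.0%, and for CYR61 10.3%, 33.3%, 51.0% and 72.9%. Without thinning these genes were seen above 30 in 95.2%, 93.8% and 95.0% of cells. YAP1 had 41.9% below 5 and 37.2% above 30 (34.7 to 39.8%), and WWTR1 14.2% and 31.8%. LATS2 had 19.96% and 32.5%, AMOTL2 14.7% and 39.4%, and AXL 7.32% and 39.8%. TEAD1 had the highest share below 5, at 64.2%, and 76.0% above 30, while TEAD2 had 34.6% and 27.4%. Between 5 to below 10 and 10 to 30 the shares of some members did not follow their levels, for LATS2 and TEAD1 within counting error. LATS2 had 33.3% (29.9 to 36.9%) and 31.0% (28.2 to 33.8%) there and TEAD1 74.6% (71.2 to 77.7%) and 71.5% (68.7 to 74.2%). The CPM of both were slightly higher in the second of these bands, with intervals of the ratio that held 1. TEAD2 had 33.1% in both, with 80.9 and 70.8 CPM, and YAP1 39.2% and 39.6%, with 112.5 and 112.0 CPM.

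Neuron-like cells, defined by UMIs of at least 3 of 10 neuron genes after thinning, served as cells in which YAP1, WWTR1 and their targets should be low. Of 140 such cells, the 121 below 5 are used here, with a median of 14048 UMIs, so their low targets rest also on the choice by TAGLN. All 140 together had 277 CPM of CTGF and 316 CPM of ANKRD1, with thinned shares of 14.3% and 10.0%, against 293 and 344 CPM over all kept cells. In the 121 cells below 5 the thinned shares were 11.6% for YAP1 (6.47 to 18.7%), 3.31% for WWTR1 (0.908 to 8.25%), 6.61% for LATS2 (2.90 to 12.6%) and 19.8% for TEAD2 (13.1 to 28.1%), all below the shares of the whole band. For CTGF the share was 4.96% (1.84 to 10.5%), for CYR61 5.79% (2.36 to 11.6%), for ANKRD1 0.826% (0.0209 to 4.52%) and for AXL 3.31% (0.908 to 8.25%). The intervals of these 4 targets held the shares of the band below 5, as did that of AMOTL2 (13.2%, 7.75 to 20.6%), so these 5 shares were not told apart from this background after thinning. On the unthinned levels, the neuron-like cells had 9.54 CPM of CYR61 (5.65 to 15.1), 5.30 CPM of AXL (2.54 to 9.75) and 11.1 CPM of CTGF, and these 3 intervals lay below the 27.2, 16.3 and 19.9 CPM of the band. The intervals of ANKRD1, at 10.1 CPM (6.06 to 15.7), and of AMOTL2, at 26.0 CPM (19.2 to 34.3), held the levels of the band on this scale too. As an unthinned share of cells, CTGF had 15.7% (9.73 to 23.4%), which held the 21.7% of the band, so CTGF was not told apart by this measure. The unthinned shares of CYR61 (9.09%, 4.63 to 15.7%) and AXL (8.26%, 4.03 to 14.7%) lay below the 28.7% and 22.6% of the band. TEAD1 had 63.6% (54.4 to 72.2%), so these cells were not low in it and give no background for TEAD1.

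**Figure D2:**
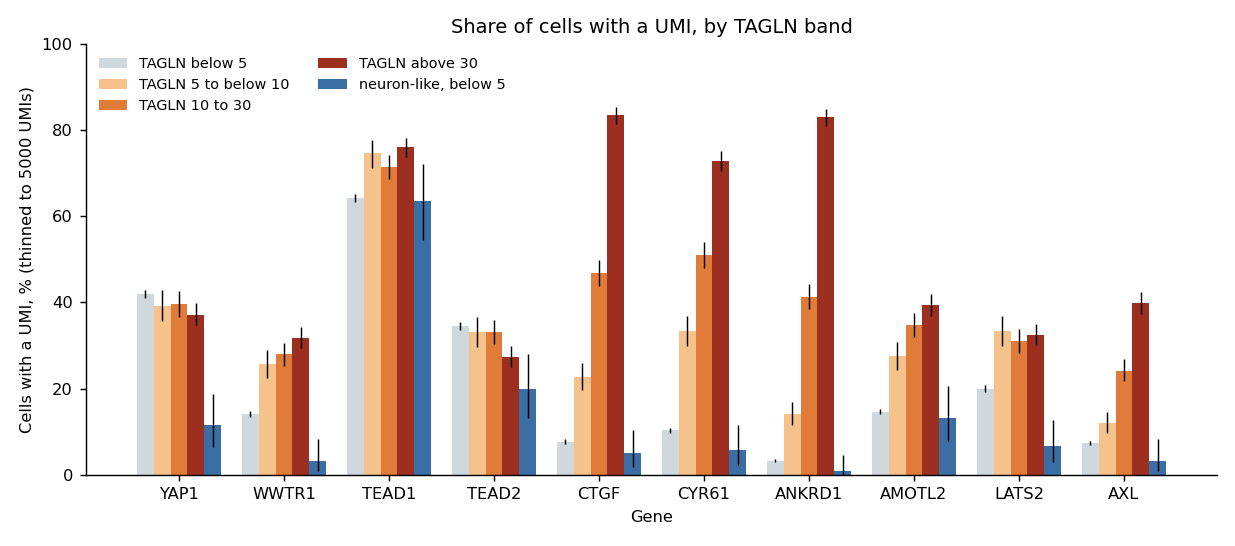
Percent of cells with at least 1 UMI of each member after thinning to 5000 UMIs, for the 4 TAGLN bands and for the 121 neuron-like cells of the band below 5; bars are shares and lines exact 95% binomial intervals. CTGF, CYR61 and ANKRD1 lie between 3.28 and 10.3% below 5 and between 72.9 and 83.5% above 30, whereas YAP1 has 41.9 and 37.2%.

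The number of targets found in 1 cell was higher with each band, as were the shares of the single targets except LATS2. LATS2 had 33.3% at 5 to below 10 and 31.0% at 10 to 30. At least 3 of the 6 targets had a UMI in 2.46% of thinned cells below 5 (2.17 to 2.77%), 18.2% at 5 to below 10 (15.4 to 21.2%), 42.3% at 10 to 30 (39.3 to 45.3%) and 79.7% above 30 (77.6 to 81.8%). The mean number of targets per cell was 0.633, 1.43, 2.29 and 3.51. Set against the product of the separate shares, co-detection had a median ratio over the 15 pairs of targets of 1.22, 1.22, 1.14 and 1.07 from the lowest to the highest band. This ratio cannot exceed the inverse of the larger share, a bound that is lower where shares are high, so it does not compare the bands. The median Pearson r of log(1 + UMIs) over the same pairs was 0.0269, 0.0924, 0.0765 and 0.0941. All 6 were found in 0 of 10670 thinned cells below 5, which allows a share of up to 0.0281% by 3 counts of the total and 0.0346% by the upper Clopper-Pearson limit, and in 64 of 1412 cells above 30 (4.53%). In the neuron-like cells below 5, 1 of 121 had at least 3 targets (0.826%, 0.0209 to 4.52%). Read the other way, 1982 thinned cells had at least 3 targets, and 1126 of them (56.8%) lay above 30 and 262 (13.2%) below 5. Of these 262, 97 had no TAGLN UMI at all.

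**Figure D3:**
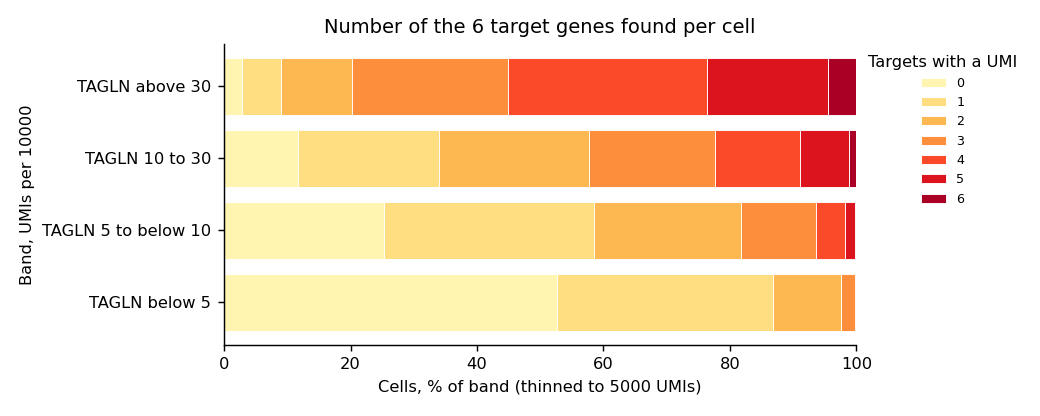
Percent of thinned cells in each TAGLN band by the number of the 6 targets with a UMI, from 0 (pale) to 6 (dark). Cells with none make up 52.6% of the band below 5 and 2.90% of the band above 30.

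At 1 depth, CTGF, CYR61, ANKRD1 and AXL varied together most clearly in the bands from 10 to 30 and above 30, and CTGF with ANKRD1 in every band. CTGF and ANKRD1 had the highest Pearson r of log(1 + UMIs) among the 45 pairs in every band, at 0.116, 0.549, 0.665 and 0.622 over 10670, 720, 1095 and 1412 cells. The r of CTGF with CYR61 was 0.0715, 0.310, 0.419 and 0.403, and that of ANKRD1 with AXL 0.0465, 0.296, 0.281 and 0.239. AMOTL2 and LATS2 had an r of at most 0.140 in size with any other target. Below 5 the r of AXL with CTGF was 0.0247 and with CYR61 0.0269, no higher than the 0.0537 of WWTR1 with CYR61. At 5 to below 10 the r of CYR61 with AXL, 0.0924, was under its 0.110 with AMOTL2. From 10 to 30 these 2 were close, at 0.144 and 0.140, and above 30 they were 0.106 and 0.0668. Of the 45 pairs, 1, 7, 9 and 6 reached an r of 0.1 from the lowest to the highest band. Such values describe cells of 1 library that share their source, and in sparse counts the values near 0 are no finding. Thinning does not match cells by their original depth, and TAGLN also differs within a band. From 10 to 30, CTGF had 82.1, 119 and 540.3 CPM from the shallowest to the deepest cells, and ANKRD1 160.3, 100.6 and 646 CPM. ANKRD1 had 217 CPM at TAGLN from 10 to below 15 and 716 CPM from 20 to 30. The part of depth and TAGLN in these r was not tested.

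**Figure D4:**
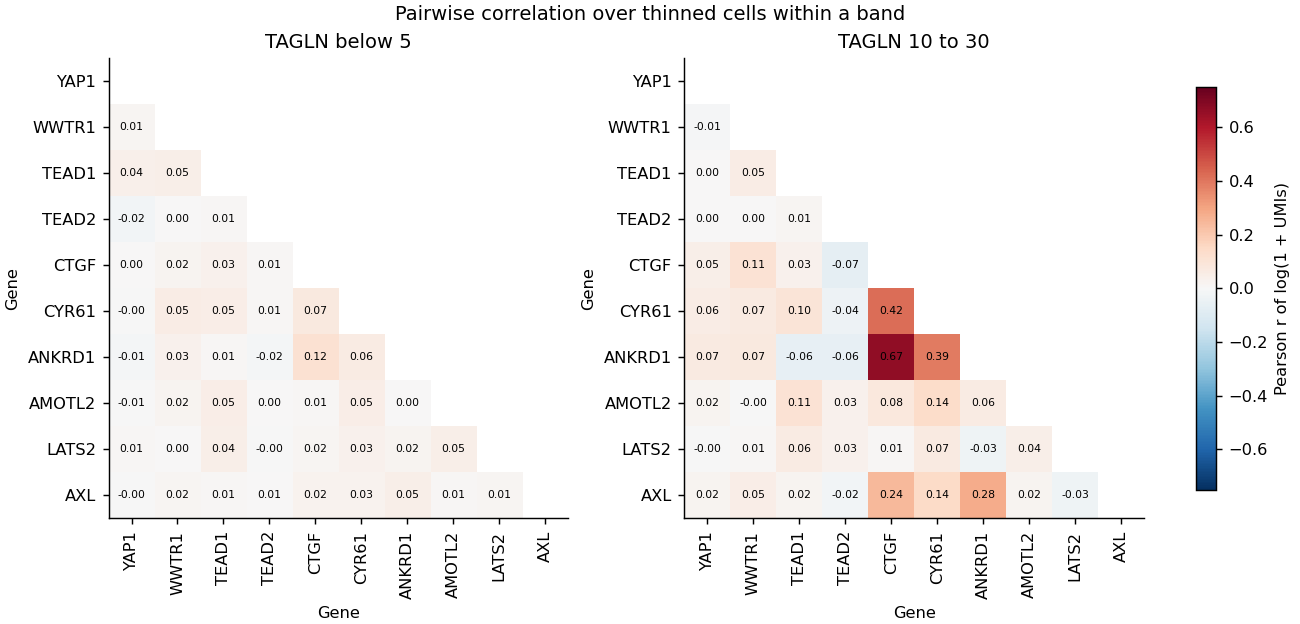
Pearson r of log(1 + UMIs) between members over thinned cells of the band below 5 (left) and of the band from 10 to 30 (right), as colour and number. In the band from 10 to 30 the highest values are those among CTGF, CYR61, ANKRD1 and AXL, with 0.665 for CTGF with ANKRD1. The lowest of them, 0.144 for CYR61 with AXL, is close to the 0.140 of CYR61 with AMOTL2. All values of YAP1 lie between -0.0101 and 0.0656.

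Co-detection was read for the same pairs. Below 5, 49 thinned cells had UMIs of both CTGF and ANKRD1, 1.82 times the 27.0 given by the product of the separate shares. This ratio was 2.54 at 5 to below 10, 1.55 at 10 to 30 and 1.08 above 30, where most cells had both and the ratio had little room above 1. For CTGF and CYR61 it was 1.51, 1.62, 1.30 and 1.07. For YAP1 with CTGF, CYR61 or ANKRD1 it lay between 0.913 and 1.06 in all bands. For WWTR1 with the same 3 targets it lay between 0.998 and 1.31.

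The targets were also set against the presence of a co-activator UMI in the same thinned cell. Below 5, ANKRD1 was 1.84-fold higher in the 1513 cells with a WWTR1 UMI than in the 9157 without (interval 1.46 to 2.30), CYR61 1.48-fold (1.29 to 1.70) and CTGF 1.20-fold (1.01 to 1.43). At 5 to below 10 these ratios were 1.51 (1.18 to 1.94), 1.36 (1.07 to 1.71) and 1.18 (0.914 to 1.51), so the interval of CTGF held 1. From 10 to 30 they were 1.21 (1.10 to 1.33), 1.22 (1.07 to 1.39) and 1.37 (1.23 to 1.51). Above 30 the ratio was 0.982 for ANKRD1 (0.938 to 1.03), 1.03 for CYR61 and 1.13 for CTGF (1.07 to 1.18). By YAP1 UMIs the ratios below 5 were 0.817 for ANKRD1 (0.669 to 0.994), 0.972 for CYR61 and 0.961 for CTGF. At 5 to below 10 they were 1.03, 1.16 and 1.10, with intervals that held 1. From 10 to 30 they were 1.23 for ANKRD1 (1.12 to 1.35), 1.11 for CYR61 and 1.18 for CTGF (1.07 to 1.30). Above 30 they were 1.02 for ANKRD1 (0.979 to 1.07), 1.12 for CYR61 (1.04 to 1.22) and 1.05 for CTGF (0.998 to 1.10). LATS2, which is not a co-activator, was used for the same split. Below 5 its ratios were 1.48 for ANKRD1 (1.19 to 1.83), 1.22 for CYR61 (1.06 to 1.39) and 1.19 for CTGF (1.02 to 1.39). At 5 to below 10 they were 0.853, 1.06 and 1.03, with intervals that held 1. From 10 to 30 they were 0.878, 1.22 and 1.01, and above 30 1.04, 1.12 and 1.18. Higher targets below 5 were thus not particular to cells with a WWTR1 UMI. A cell without a UMI at this depth is not a cell without the RNA, and the intervals assume independent molecules although ANKRD1 UMIs gathered in few cells. TAGLN and original depth were also not matched between cells with and without a UMI of the splitting gene within a band. From below 1 to the step from 3 to below 5, WWTR1 went from 30.6 to 61.8 CPM and ANKRD1 from 6.30 to 43.6 CPM. YAP1 had 121.3 and 120.6 CPM in these steps. In cells below 5, from fewer than 15000 to more than 30000 UMIs, WWTR1 went from 27.8 to 45.9 CPM and ANKRD1 from 7.30 to 30.7 CPM. YAP1 went from 110.2 to 129.6 CPM there. The part of TAGLN and of depth in the ratios was not tested.

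Depth moved with the bands and with the targets. Within cells of 15000 to 30000 UMIs, 5562 below 5 and 289 above 30, the ratio of the summed targets was 12.5, against 20.1 over all depths. ANKRD1 had a ratio of 76.6 there, CTGF 36.7, CYR61 12.4 and WWTR1 2.10. In cells above 30000 UMIs the ratios were 47.1 for ANKRD1, 34.1 for CTGF and 9.13 for CYR61, and in cells below 15000 UMIs 187, 23.8 and 8.93. AXL had a ratio of 5.21 at 15000 to 30000 UMIs, 6.18 above and 3.38 (2.54 to 4.42) below. Within the band from 10 to 30, CTGF had 82.1 CPM in cells below 15000 UMIs, 119 CPM at 15000 to 30000 and 540.3 CPM above 30000, and ANKRD1 160.3, 100.6 and 646 CPM. The part of depth in the differences between bands was not tested beyond these values. The share of cells among the highest 8% of Scrublet doublet scores was 7.50%, 10.3%, 10.7% and 7.07% from the lowest to the highest band, and without these cells the summed ratio was 20.9.

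The other genes of the pathway were read from lists, by the ratio of the band above 30 to the band below 5. These lists, like the members, were chosen with earlier results of these data known, so their counts are no independent evidence. In the kinase core, 0 of 10 genes were at least 2-fold higher, against 7.35% of all genes, and 0 at least 2-fold lower, against 25.5%. With only 10 genes, neither count is read as a result about the list. The median ratio was 0.909 against 0.758 over all genes. TAOK2 had the highest ratio of that list (1.17), then MAP4K4 (1.12) and SAV1 (1.07), and TAOK3 the lowest (0.563), after LATS1 (0.715) and MOB1B (0.760). Of 15 upstream regulators, 5 were at least 2-fold higher, against 7.35% of all genes, and 3 at least 2-fold lower, against 25.5%, with a median of 0.966. The 3 lower are not more than the share over all genes and are read as no result about the list. FRMD6, a FERM-domain activator of the cascade, had 18.9 CPM below 5 and 176 CPM above 30 (ratio 9.32). AMOT, the founding angiomotin, had a ratio of 4.15 and PTPN14, a phosphatase that binds YAP1, 2.71. The other 2, WWC2 (2.05) and WWC1 (2.00), lie outside the naming rule and were named after their values were seen. The 3 lower genes were the polarity genes LLGL1 (0.469) and CRB2 (0.439) and the giant cadherin FAT4 (0.391).

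Of the 6 other TEAD and VGLL genes, VGLL1 and VGLL2 had only 2 and 4 UMIs and were not tested. VGLL3, a TEAD cofactor, had 4.71 and 42.4 CPM (ratio 9.02), TEAD4 9.09 and 30.3 CPM (3.34), TEAD3 a level of 35.9 CPM above 30 (2.39), and VGLL4, which competes with YAP1 for TEAD, 106 and 103 CPM (0.971). Of 16 further genes of a published YAP signature, 15 were tested (FOXF2 had 42 UMIs), and 9 of these were at least 2-fold higher and 0 at least 2-fold lower, with a median ratio of 2.71. Over all genes these shares were 7.35% and 25.5%. This list too was chosen with earlier results of these data known, so the count describes it and is no independent evidence. TGFB2, a secreted growth factor, had 7.71 and 196 CPM (25.4), MYOF, a membrane repair protein, 3.03 and 64.5 CPM (21.3), and CRIM1, a transmembrane binder of BMPs, 41.0 and 634 CPM (15.5). The lowest were F3 (1.21), ASAP1 (0.899) and CCDC80 (0.796). PTPN14 stands in this list and among the upstream regulators.

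**Figure D5:**
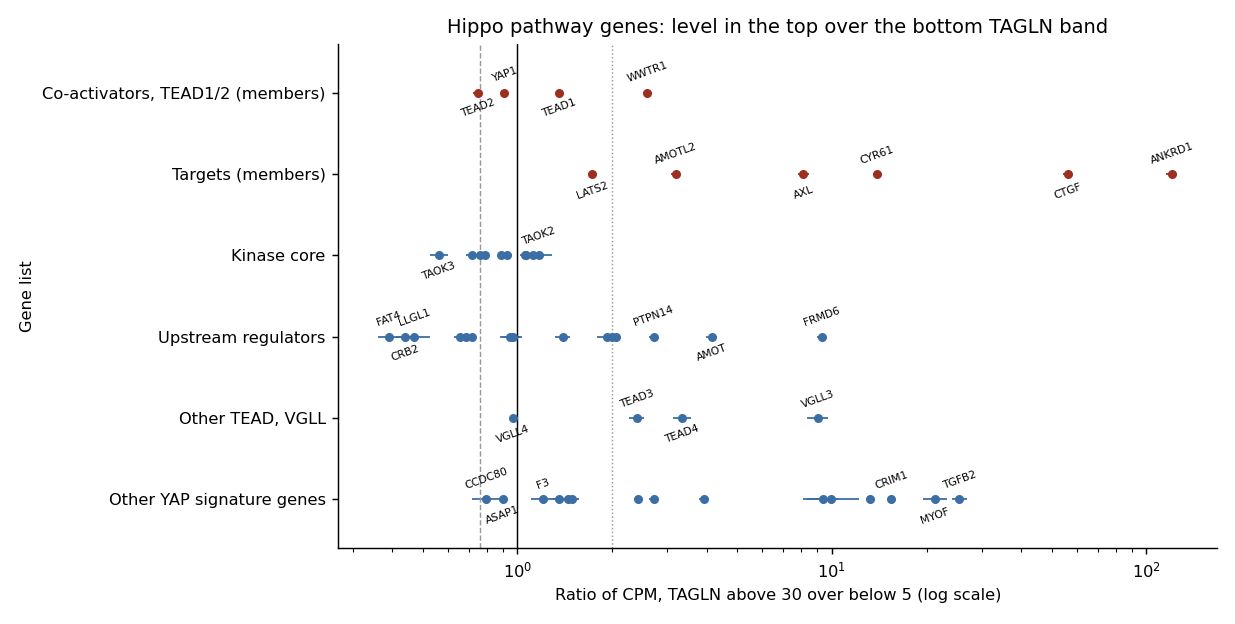
Ratio of the level above 30 to the level below 5 (log scale) for each tested gene of 6 lists, with exact 95% intervals; the solid line marks 1, the dotted line 2 and the dashed line the median of all genes, 0.758. Members are in red and the other lists in blue; the kinase core lies between 0.563 and 1.17, while the targets run from 1.73 to 120.3.

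The genes most like each member were found by the mean of Pearson r over the 4 bands, among 10982 genes with at least 500 thinned UMIs and over 13897 thinned cells. For CTGF they were ANKRD1 (0.488), AKAP12, a kinase anchor (0.369), and CRIM1 (0.359), and for ANKRD1 they were CTGF, ANXA1, a membrane-binding annexin (0.474), and TFPI2, a protease inhibitor (0.396). For CYR61 they were CTGF (0.301), CALD1, which codes for caldesmon of the actin cytoskeleton (0.271), and ANKRD1 (0.263). For AXL they were ANKRD1 (0.216), ANXA1 (0.193) and AKAP12 (0.192). TEAD1 went with SHROOM3, a regulator of apical constriction (0.211), LPP, of focal adhesions (0.186), and EXT1, of heparan sulphate synthesis (0.163). AMOTL2 reached no more than 0.104, and YAP1, WWTR1, TEAD2 and LATS2 no more than 0.0858, 0.0920, 0.0713 and 0.0889, so no likeness is read for these 5.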

How the data were processed

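One library (10x Chromium 3′ HT v3.1) was used. The authors deposited raw UMI counts per gene and barcode, made with Cell Ranger 7.0.1 on GRCh38. By the study's methods Cell Ranger was run with default parameters, and the annotation version and strand setting for this library are not named. Seurat 4.4.0 is named in the submitters' processing notes. The members, gene lists, marker lists and bands were chosen with earlier results of these data known. Cells were kept by the study's filter. Pooled CPM carry exact 95% Poisson intervals, ratios exact conditional intervals and shares Clopper-Pearson intervals, which cover counting error only. Genes with at least 100 UMIs in kept cells were compared, and called means a ratio of at least 2. Thinning to 5000 UMIs left out 28 kept cells. Named genes were the members, the 3 highest and 3 lowest ratios of each list, and the 3 genes with the highest mean r per member, which were left unnamed, after seeing the values, for the 5 members with the lowest such r. Scrublet's automatic threshold (0.774) marked 1 of 14726 barcodes, so it did not work here and none were taken out as doublets. As an alternative, the 1178 highest scores were left out. Spans and overlaps came from GENCODE version 44, and promoters from RefSeq. RefSeq windows for TEAD1 and CYR61 were not used here. The calculations ran in Python 3.11.15 with numpy 2.4.6, scipy 1.17.1, pandas 2.3.3, scanpy 1.11.5 and matplotlib 3.10.9, and were tested on simulated data. Alternatives covered scaling, pooling, bands, thinning, depth, doublets and cell filters. The ratios within cells below 15000 and above 30000 UMIs, and the runs on the YAP signature list, were added after seeing the data.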

Additional observations from a re-analysis of the deposited data

Results flagged for a closer look

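The cell filter left out 94 barcodes with over 10000 genes, a median of 103907 UMIs and high levels of the targets. Of these, 41.5% (31.4 to 52.1%) lay in the band above 30, against 10.2% of the kept cells, and 44.7% in the band from 10 to 30. Their ANKRD1 level was 965 CPM (946 to 985), between the 495 and 1355 CPM of the kept cells in these bands, and CTGF was 688 CPM. Of the same barcodes, 46.8% were among the highest 8% of Scrublet scores, and the part of doublets in these values was not tested.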

How the results depend on the processing

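The count of members at least 2-fold higher above 30 was 6 and stayed between 5 and 9 under all 14 alternatives run, with WWTR1 under 2-fold in cells below 15000 UMIs. The ratio of the summed targets, 20.1, was 48.7 for UMIs per cell, 26.5 after division by the median gene, 19.8 as a mean of per-cell CPM, 19.4 with bands from thinned TAGLN and 18.0 with bands by MYL9. It was 20.9 without the highest Scrublet scores, 19.3 with no cell filter and 21.9 with a mitochondrial share below 0.05. By depth it was 15.8 in cells below 15000 UMIs, 12.5 at 15000 to 30000 and 14.2 above 30000. With band limits doubled it moved by less than its interval. YAP1 turned to 2.20 per cell and 1.20 after division by the median gene, and TEAD2 to 1.81 per cell. In cells below 15000 UMIs TEAD1 turned to 0.665 and LATS2 to 0.995. Genes at least 2-fold higher were 43.8% of all genes per cell and 11.5% after division by the median gene. The count of YAP signature genes, 9, was 14 per cell and 5 in cells below 15000 UMIs.

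The share of cells above 30 with at least 3 targets, 79.7%, was 58.7% when thinned to 2500 UMIs, 92.7% at 10000 and 64.0% in cells of 15000 to 30000 UMIs. The CTGF share, 83.5%, was 71.0%, 90.1% and 70.6% in the same order. Of 183 values for single members, 73 stayed within their counting interval, 105 moved outside it without turning and 5 turned. Except where the construction shows it (fewer UMIs kept, other units), the cause was not tested. No paired analysis was possible because there is 1 library. Thinned depth and the 121 neuron-like cells limit the background: below 5, the thinned shares of all targets but LATS2 were not told apart from it, and without thinning the ANKRD1 share of these cells (14.9%, 9.06 to 22.5%) still held the 10.6% of the band. Their unthinned CTGF share (15.7%, 9.73 to 23.4%) likewise held the 21.7% of the band.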

Other observations

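Barcodes left out for fewer than 2000 genes (520, median 1552.5 UMIs) had 196 CPM of ANKRD1 (170.0 to 226) and 139 CPM of CTGF. The 187 left out for their mitochondrial share alone had 367 CPM of ANKRD1, 351 CPM of CTGF and 104 CPM of WWTR1, against 344, 293 and 53.6 CPM over all kept cells.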
